A study of Mus musculus with 4 samples.

Results

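The cells described here are T cells with transcripts of at least 2 of the genes Foxp3, Ctla4 and Izumo1r, found among cells sorted as dendritic cells from mesenteric lymph nodes of mice. A cell counted as a member if it had a single hashtag, at least 500 genes, at most 10% mitochondrial UMIs (unique molecular identifiers, each 1 counted transcript) and at least 3000 UMIs. It also needed at least 2 UMIs of Cd3e, Cd3d and Cd3g together, under 2000 CPM of Cd74 (CPM are counts scaled to the summed UMIs of a cell or mouse), and UMIs of at least 2 of the 3 genes. Of 11861 filtered cells, 1635 passed the Cd3 and Cd74 gates as T cells, and 252 of these were members. The members were thus chosen by their measured UMIs of Foxp3, Ctla4, Izumo1r, the Cd3 genes and Cd74, so the values of these genes are given as a description with no test. A Foxp3 UMI was present in 115 of the 252.

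All animals were untreated 15-day-old mice of the genotype Gm38411-iCre-hCD2 R26tdTomato. The locus Gm38411 carries a cassette for iCre and for human CD2 (hCD2), a reporter seen at the cell surface, and cells that recombined R26 carry tdTomato from then on. The sort took CD3- B220- CD11c+ MHC-II+ tdTomato+ cells and parted them into hCD2- and hCD2+ fractions. A gate on CD3- would remove T cells with CD3 at the surface. Each of 12 mice had its own hashtag in both fractions, and each fraction was 1 library of 10x 3' single-cell RNA sequencing, so fraction and library cannot be told apart. The study concerns dendritic cells and how oral antigens induce peripheral regulatory T cells.

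Regulatory T cells are CD4 T cells that restrain other immune cells, and the transcription factor Foxp3 sets and keeps their identity. They take up interleukin 2 through the high-affinity receptor chain Il2ra and signal through Stat5. Their surface protein Ctla4 binds and removes costimulatory ligands from antigen-presenting cells. Izumo1r, also called folate receptor 4, is a surface protein found on regulatory and anergic CD4 T cells. Those that arise in the thymus are often told from those induced in the gut by the transcription factor Ikzf2 (Helios) and the receptor Nrp1. Crtam, an adhesion receptor of activated cytotoxic lymphocytes, is the fourth gene by which the cells were labelled.

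In GRCm38 (GENCODE vM21), Foxp3 lies at chrX:7573644-7595245 on the plus strand, Ctla4 at chr1:60887000-60915832 on the plus strand and Izumo1r at chr9:14885814-14903949 on the minus strand. All 3 are protein-coding genes. The spaced motif TTCNNNGAA, whose form is the same on both strands, is the classical target of Stat factors. The 250 bases before the RefSeq start sites were searched for it. Of 12 genes looked up (the 3 rule genes, Il2ra, Il2rb, Tnfrsf4, Tnfrsf18, Socs2, Cish, Ikzf2, Lrrc32 and Itgb8), 8 had an entry, with 9 start sites in all. Windows of 2 start sites held the motif, against 7.02% (2306 of 32851) of all windows of that length. They are shown because both genes are described with values in what follows. One starts 139 bases before a Foxp3 start site (chrX:7580233-7580482, plus strand, GRCm38.p6). The other starts 99 bases before the start of Tnfrsf18 (chr4:156026072-156026321, plus strand, GRCm38.p6). Capitals mark the motif, and a match is a description of the letters, not of a bound site.
Foxp3: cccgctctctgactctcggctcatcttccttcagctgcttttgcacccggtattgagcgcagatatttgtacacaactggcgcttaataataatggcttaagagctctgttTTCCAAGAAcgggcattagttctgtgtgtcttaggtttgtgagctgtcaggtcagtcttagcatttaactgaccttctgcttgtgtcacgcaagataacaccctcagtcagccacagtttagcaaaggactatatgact
Tnfrsf18: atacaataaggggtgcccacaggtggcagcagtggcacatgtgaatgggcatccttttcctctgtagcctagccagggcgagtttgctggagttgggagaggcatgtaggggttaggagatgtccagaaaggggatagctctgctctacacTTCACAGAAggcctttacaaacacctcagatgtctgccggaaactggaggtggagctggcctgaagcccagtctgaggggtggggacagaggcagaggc

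The libraries held 165869588 (hCD2-) and 191493368 (hCD2+) UMIs over 5603 and 8801 called cells, and they shared 20 cell barcodes. The 163 members of the hCD2- library had a median of 19130 UMIs and the 89 of the hCD2+ library 38630. The comparison cells were 309 conventional CD4 T cells (241 and 68) and 705 CD8 T cells (530 and 175) that passed the same gates with at most 1 of the 3 genes. Their median depths were 15197 and 13571 UMIs for CD4 cells and 19385 and 17292 for CD8 cells. Per mouse, 6 to 26 members came from the hCD2- fraction and 1 to 17 from the hCD2+ fraction. tdTomato UMIs were present in 98.8% and 98.9% of members and in 98.3% and 92.0% of CD8 T cells. Pooled, members held 329 and 170 CPM of it, and droplets of 10 to 100 UMIs, which hold mostly free RNA, held 246.5 and 158 CPM. The part of free RNA in the tdTomato UMIs of members was not tested.

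The label was held against the data, and the rule took in cells of at least 2 kinds. All 3 genes were detected in 104 members, Foxp3 and Ctla4 in 10, Foxp3 and Izumo1r in 1, and Ctla4 and Izumo1r without Foxp3 in 137. Of the 115 members with a Foxp3 UMI, 94 had Cd4 and no Cd8a or Cd8b1 UMI, 14 had both, 3 had Cd8 alone and 4 had neither. The 137 members without a Foxp3 UMI split into 65 with Cd4 alone, 62 with Cd8 alone, 7 with both and 3 with neither. Those 62 cells had Nkg7, a granule gene of cytotoxic lymphocytes, in 98.4% of cells and Il2ra in 8.06%. In contrast, the 94 Foxp3-detected cells with Cd4 alone had Il2ra in 91.5% and Tnfrsf4 (OX40, a costimulatory receptor) in 89.4%. The 65 with Cd4 alone and no Foxp3 UMI had Il2ra in 30.8% and Tnfrsf4 in 30.8%. Their median was 18901 UMIs against 25930 for those 94, and missed Foxp3 transcripts were not tested. The 3 Foxp3-detected cells with Cd8 alone had no Il2ra or Izumo1r UMI. The label therefore fits most of the 115 cells with a Foxp3 UMI, and the 137 without one are called here by their genes.

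Foxp3 was close to absent outside the members, which the rule fixes in part, since T cells outside could hold at most 1 of the 3 genes. Summed per mouse, members of the hCD2- library held 64.5, 95.5 and 220 Foxp3 CPM (lowest, median and highest of 12 mice) and those of the hCD2+ library 46.4, 71.5 and 98.6 (10 mice with at least 3 members). Pooled conventional CD4 cells of the hCD2- library held 0.776 CPM, and antigen-presenting cells without a Cd3 UMI held Foxp3 in 0.297% and 0.299% of cells at median depths of 27922 and 20611 UMIs. Izumo1r was found in 0.395% and 0.0747% of those antigen-presenting cells. Ctla4 was not as specific, with a UMI in 21.3% and 26.2% of them. Ctla4 thus occurred in many of these antigen-presenting cells, while Foxp3 and Izumo1r rarely did. Among T cells outside the members, the only rule gene was Ctla4 in 381, Izumo1r in 219 and Foxp3 in 3.

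Crtam did not mark the members against CD8 T cells. It was detected in 29.4% (hCD2-) and 24.7% (hCD2+) of members, in 48.5% and 40.0% of CD8 T cells and in 12.0% and 14.7% of conventional CD4 T cells. Among members it was found in 48.4% of the 62 cells with Cd8 alone and no Foxp3 UMI. In the 94 Foxp3-detected cells with Cd4 alone it was found in 21.3%.

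At the edges of the rule, 148 members had exactly 2 of the 3 genes and 603 T cells outside had exactly 1 (381 Ctla4, 219 Izumo1r, 3 Foxp3). A further 780 T cells had none. Cd74 lay between 1000 and 2000 CPM in 20 members, and 18 cells that met every other gate lay between 2000 and 3000. The rule needs UMIs, so it admits deep cells more readily. When each T cell was thinned to 3000 UMIs, Foxp3 remained in 18.4% of hCD2- members and 21.3% of hCD2+ members.

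Over the 1635 T cells thinned to 3000 UMIs, 50 had a Foxp3 UMI, and genes were ranked by how their detection went with that of Foxp3. The phi coefficient, a correlation of presence and absence across cells that share libraries, was highest for Itgb8 (0.36), an integrin chain that activates TGF-beta. Lrrc32 (GARP, which tethers latent TGF-beta) followed at 0.325, then Ctla4 at 0.323, Il2ra at 0.306 and Izumo1r at 0.283. Itgb8 was seen in 28 cells in all, 14 of them with Foxp3. Lrrc32 was seen in 25 cells, 12 of them with Foxp3. By cells shared with Foxp3, Ctla4 (38), Il2ra (30) and Izumo1r (28) came before them. Tnfrsf4 (0.28) and Ryr2, a calcium release channel (0.278), were next by phi. Ctla4 and Izumo1r were part of the rule for members but not of the choice of T cells.

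Members made up a smaller share of the hCD2+ cells but a larger share of the hCD2+ T cells. Of filtered cells, they were 1.65%, 3.40% and 4.82% (lowest, median and highest of 12 mice) in the hCD2- fraction and 0.274%, 1.10% and 2.64% in the hCD2+ fraction. The means were 3.36 ± 0.994% (SD, n = 12) and 1.21 ± 0.686% (SD, n = 12), with the hCD2+ share lower in 12 of 12 mice (two-sided permutation test, p = 2e-05, adjusted over 2 shares 4e-05). With all 3 genes required, the difference was -0.449 percentage points and did not pass (permutation p = 0.0642). The T cell gate itself held 402 hCD2+ and 1233 hCD2- cells.

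Of T cells, members were 7.27%, 13.2% and 19.3% in the hCD2- fraction and 4.65%, 23.5% and 42.9% in the hCD2+ fraction. The means were 13.2 ± 3.86% (SD, n = 12) and 24.1 ± 11.8% (SD, n = 10 mice with at least 20 T cells), higher in hCD2+ cells in 9 of 10 mice (permutation p = 0.00732). The groups overlapped. With the rule applied after thinning to 3000 UMIs, the shares were 4.93% and 7.23% and the difference did not pass (permutation p = 0.255). Members were deeper in the hCD2+ library, while all T cells had medians of 18534 (hCD2-) and 17992 (hCD2+) UMIs. The part of depth in the share of T cells was not tested beyond this thinning, which left 9 hCD2+ mice.

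**Figure D1:**
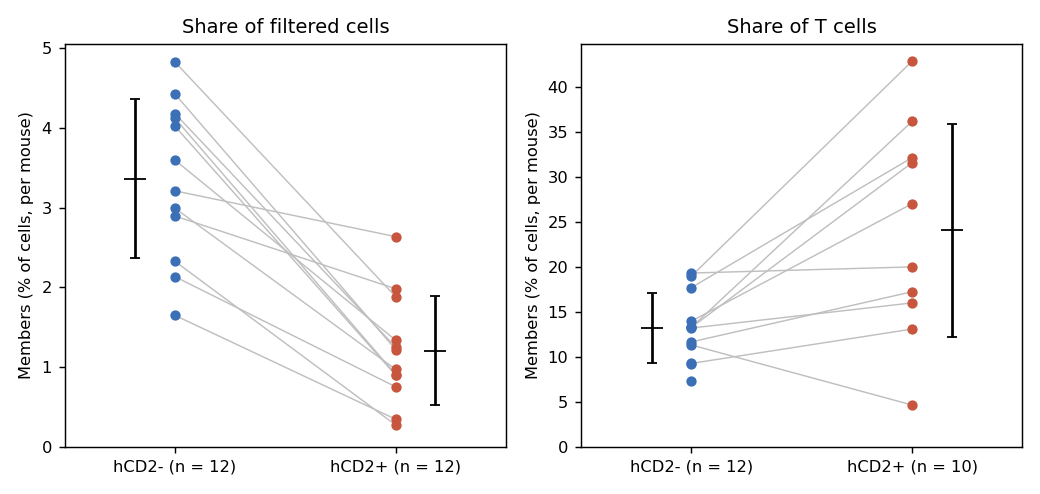
Members as a percentage of filtered cells (left) and of T cells (right), by fraction, with 1 point per mouse, lines joining the fractions of a mouse, and the mean ± SD beside the points. The share of filtered cells is lower in hCD2+ for all 12 mice, while the share of T cells is higher in hCD2+ for 9 of 10.

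Against conventional CD4 T cells of the hCD2- library (12 mice in each group), members carried more transcript of regulatory receptors and effector genes and less of genes of resting, recirculating T cells. edgeR's quasi-likelihood test with Benjamini-Hochberg adjustment called 328 of 4483 tested genes higher (7.32%) and 248 lower (5.53%) at an adjusted p under 0.05. Lists of genes were drawn up by function, and rule genes were left out of them. Of the 24 genes of regulatory T cell identity, 10 passed the low-count filter, of which 6 were higher and 0 lower, with a median log2 fold change of 1.48 against 0.01 over all genes. Of 11 tested effector and memory genes, 9 were higher. Of 15 tested naive and recirculation genes, 8 were lower and 0 higher (median -0.57). The filter passes a gene through its high group, so these counts describe the tested members of each list.

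Il2ra, the interleukin 2 receptor alpha chain (chr2:11642807-11693193, plus strand), was at 128, 246 and 414 CPM (lowest, median, highest mouse) in members and at 0, 18.2 and 56.8 in conventional CD4 cells. The groups did not overlap, and the log2 fold change was 3.55 (SE 0.347, edgeR adjusted p = 3.74e-08, higher in 12 of 12 mice). Tnfrsf4 was at 39.8, 119 and 278 CPM in members and at 0, 15.2 and 33.4 in conventional CD4 cells (log2 fold change 2.97, SE 0.312, adjusted p = 1.21e-07). It too separated the groups without overlap. Per mouse, hCD2- members without a Foxp3 UMI held 0 to 99.5 CPM of Il2ra and 0 to 88.6 CPM of Tnfrsf4. These ranges overlapped those of conventional CD4 cells. Members with a Foxp3 UMI held at least 294 and 168 CPM, so the levels of both genes came mostly from them. Ikzf2 (chr1:69531214-69687245, minus strand) was at 232, 822 and 2341 CPM in members and at 10.4, 40.9 and 514 in conventional CD4 cells (3.08, SE 0.446, adjusted p = 2.75e-05, 11 of 12 mice). Its groups overlapped, and its level in members spread widely between mice. In the hCD2+ library Ikzf2 was at 0.90 and did not pass (adjusted p = 0.259), while Il2ra was called there too (4.43).

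Further genes were called higher. Tnfrsf18 (GITR, a costimulatory receptor) had a log2 fold change of 1.28 (SE 0.258, adjusted p = 0.00164). Il2rb, the chain that signals for interleukin 2, rose by 1.95 (SE 0.339, adjusted p = 0.000321). Nt5e (CD73, which makes adenosine) was at 105 ± 54.5 CPM against 34.7 ± 24.0 (SD, n = 12 each), a log2 fold change of 1.68 (adjusted p = 0.000696). With only members lacking a Foxp3 UMI, Nt5e (1.18) and S100a10 (0.48) did not pass. Of 9 tested genes of interleukin 2 and Stat5 signalling 2 were higher and 0 lower, with a median of -0.17. The called genes were Il2ra and Il2rb, and 5 of the 9 were at an unadjusted p under 0.05. Lgals1 (galectin 1, which dampens T cells) rose by 1.52 (SE 0.236, adjusted p = 7.41e-05) and S100a10, of the effector list, by 1.36 (SE 0.192, adjusted p = 2.02e-05). Hopx, a homeodomain protein of antigen-experienced T cells, was at 142 ± 75 against 21.9 ± 11.3 CPM without overlap (2.77, SE 0.301, adjusted p = 1.63e-07).

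The genes that fell included a helper molecule and several of the naive state. The comparison cells were chosen to lack Cd8 UMIs and the members were not. Against CD8 T cells, 1 of 16 tested naive and recirculation genes was lower and 1 higher. Cd40lg, the ligand by which CD4 T cells help B cells and dendritic cells, was at 7.55, 24.7 and 70.6 CPM in members and at 53.2, 96.4 and 129 in conventional CD4 cells (log2 fold change -1.76, SE 0.236, adjusted p = 1.2e-05, lower in 12 of 12 mice). Tcf7, a transcription factor of naive and memory T cells, was at 342, 534 and 685 CPM against 643, 1005 and 1200 (log2 fold change -0.98, SE 0.106, adjusted p = 1.63e-07). The receptors Il6ra (-1.02, adjusted p = 1.41e-05) and Vipr1 (-1.53, adjusted p = 4.98e-05) were lower in 12 of 12 mice. Gpr183, which guides cells to oxysterols, fell by 0.84 (adjusted p = 0.0013) and S1pr1, the receptor for exit from lymph nodes, by 0.63 (adjusted p = 0.00317). Without cells holding a Mki67 or Top2a UMI (92 members in 10 mice), neither Gpr183 nor S1pr1 passed. Satb1, Bach2, Actn1 and Foxp1 of the naive list, called lower in the main comparison, did not pass there either. The T cell receptor constant gene Trac had 641 ± 122 and 701 ± 211 CPM (log2 fold change -0.14, adjusted p = 0.572).

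Members held cells with Cd8 UMIs while the comparison cells did not, and cytotoxic genes were higher. Of 4 tested cytotoxic genes 3 were higher, Nkg7 by 2.59 on the log2 scale (132 ± 73.7 against 24.7 ± 70.2 CPM, SE 0.581, adjusted p = 0.00411), Klrd1 by 1.66 and Ctsw by 1.05. In members with Cd4 alone (9 mice), Nkg7 and Klrd1 did not pass the low-count filter, and Ctsw was at -0.27 and not called. Klrd1 did not pass with mouse as a replicate block (1.63), with Cd74 under 500 CPM (1.35) or against cells with none of the 3 genes (0.80). Of 15 proliferation genes 2 passed the low-count filter, and these 2 were called higher. Top2a, which untangles DNA in dividing cells, rose by 2.37 (SE 0.635, adjusted p = 0.0135) and was higher in 9 of 12 mice. Without cells that had a Mki67 or Top2a UMI, 74 genes were called in all, against 576.

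Summed markers of dendritic cells had close medians in members and conventional CD4 cells, while those of monocytes, NK cells and B cells had higher medians in members, with no test of the sums. The 18 dendritic cell markers summed to 200 to 2789 CPM per mouse in members (median 766) and 303 to 2142 in conventional CD4 cells (median 741), and of 6 tested none was called (edgeR). The 9 monocyte and macrophage markers, of which CD8 T cells also express Ly6c2, summed to 0 to 294 CPM in members (median 98.2; C1qb and Fcgr1 at 0) and 5.76 to 121 in conventional CD4 cells (median 21.5). The 10 markers of NK cells and ILC1 summed to 20 to 716 CPM (median 146; Klra4 at 0) against 18.6 to 1593 (median 52.6). In CD8 T cells these medians were 405 and 415 CPM, and in the CD4 comparison no gene of either list passed the low-count filter. Medians of the ILC3 list were 327.5 and 277 CPM, and those of the gamma delta and NKT list 5.08 and 10.2. The B cell list had medians of 188 and 128 CPM. Among its genes Pax5 was at 0 in members, while Ighm, the only one tested, was higher by 0.50 (adjusted p = 0.0373) and lost its call under 7 alternatives. Doublets of cells from 1 mouse cannot be seen by hashtags, and the part of other cells in the results was not tested.

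**Figure D2:**
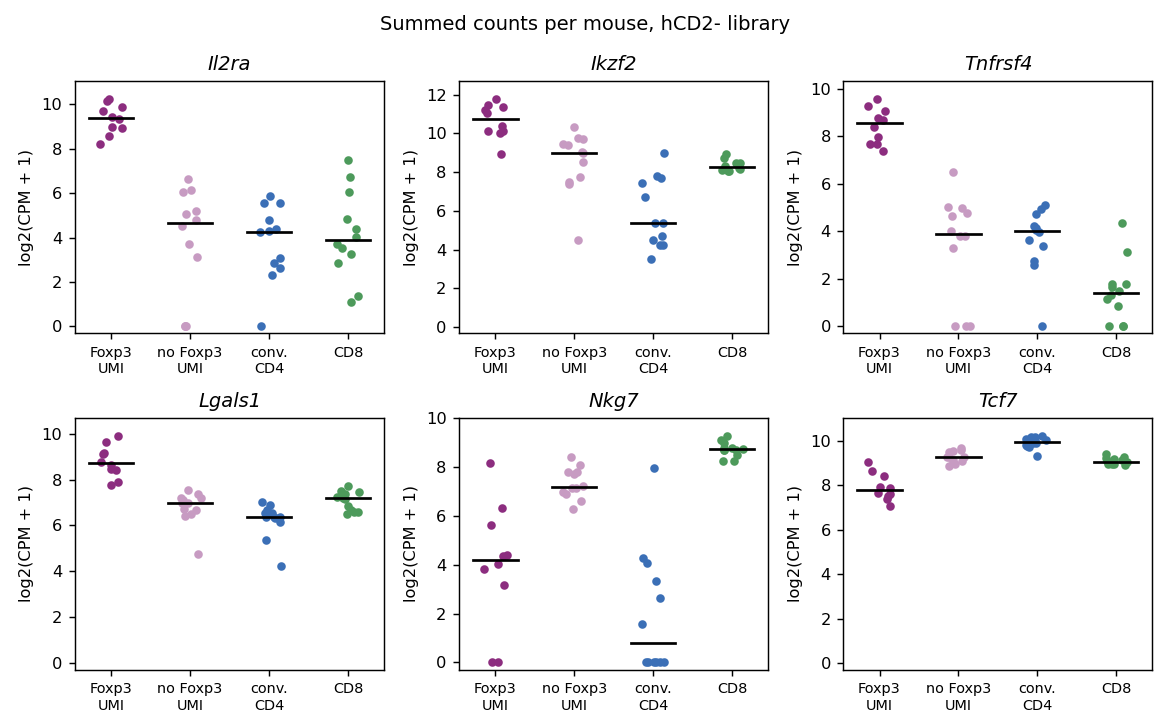
Level per mouse (log2(CPM + 1)) of named genes in the hCD2- library, in members with a Foxp3 UMI, members without one, conventional CD4 and CD8 T cells; each point is 1 mouse and each bar a median. The medians of Il2ra and Tnfrsf4 are highest in the members with a Foxp3 UMI, and that of Nkg7 in CD8 T cells.

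Against CD8 T cells of the same library (12 mice in each group), members were higher in regulatory genes and lower in cytotoxic ones. The edgeR test called 515 of 6563 genes higher (7.85%) and 378 lower (5.76%). Of 13 tested regulatory identity genes 10 were higher and 0 lower (median 1.88). Of 10 tested cytotoxic genes 8 were lower and 0 higher (median -1.48). T cell receptor response genes rose in 8 of 18 with 0 lower, and proliferation genes were called in 0 of 12 (median 0.67). Naive and recirculation genes were lower in 1 of 16 tested and higher in 1 (median -0.09).

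Tnfrsf4 was at 139 ± 74.6 CPM (SD, n = 12) in members and at 3.26 ± 5.42 in CD8 cells, without overlap (log2 fold change 5.48, SE 0.388, edgeR adjusted p = 9.81e-12). Nrp1, a coreceptor for semaphorins and TGF-beta, was at 84.9 ± 68.5 against 3.20 ± 2.48 CPM, also without overlap (4.53, SE 0.366, adjusted p = 1.86e-10). Maf, a transcription factor needed for interleukin 10 in T cells, rose by 3.84 (SE 0.461, adjusted p = 5.87e-07, 11 of 12 mice). Capg, an actin-capping protein, rose by 3.58 and the phosphatase Dusp4 by 2.95, each in 12 of 12 mice. Il2ra rose by 3.05 (SE 0.447, adjusted p = 1.42e-05). Ikzf2 rose by 1.57 (SE 0.227, adjusted p = 1.22e-05), from 329 ± 67.1 CPM in CD8 cells, which thus held more of it than conventional CD4 cells did at 116 ± 148. Whether those comparison cells differ was not tested. In the hCD2+ library Ikzf2 was at 0.09 against CD8 cells and did not pass (adjusted p = 0.878).

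Among the genes that fell, Nkg7 was at 59.8, 110 and 283 CPM in members and at 298, 419 and 617 in CD8 cells, without overlap (log2 fold change -1.77, SE 0.203, adjusted p = 2.48e-07). Prf1, which encodes perforin, was at 9.41 ± 13.1 against 40.4 ± 8.84 CPM (-2.13, adjusted p = 3.41e-05). The chemokine gene Xcl1, whose product draws cross-presenting dendritic cells, fell by 3.09 (SE 0.604, adjusted p = 0.000602). Of 22 tested lineage transcription factors 10 were higher and 3 lower (median 0.22). The 3 were factors of cytotoxic cells, with log2 fold changes of -1.87 for Tbx21, -1.48 for Eomes and -1.16 for Runx3, each in 12 of 12 mice. Eomes did not pass without the members with a Foxp3 UMI (-1.07, adjusted p = 0.0875) or without cells with a Mki67 or Top2a UMI (-0.89, adjusted p = 0.169).

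Some calls were lost when the members with a Foxp3 UMI were left out. With the 95 members without one in 10 mice, 219 genes were called against 893, Il2ra was at 0.18 and Tnfrsf18 at 0.54, and neither passed. Ikzf2 was at 0.65 there and did not pass. The dendritic cell marker sum was 265 to 1104 CPM in CD8 cells (median 358), and of 6 tested markers Fscn1 (2.40, adjusted p = 0.00722) and H2-Ab1 (0.92, adjusted p = 0.0185) were higher in members. H2-Ab1 was at 0.20 and did not pass with Cd74 held under 500 CPM. The part of dendritic cell transcripts in other genes was not tested.

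**Figure D3:**
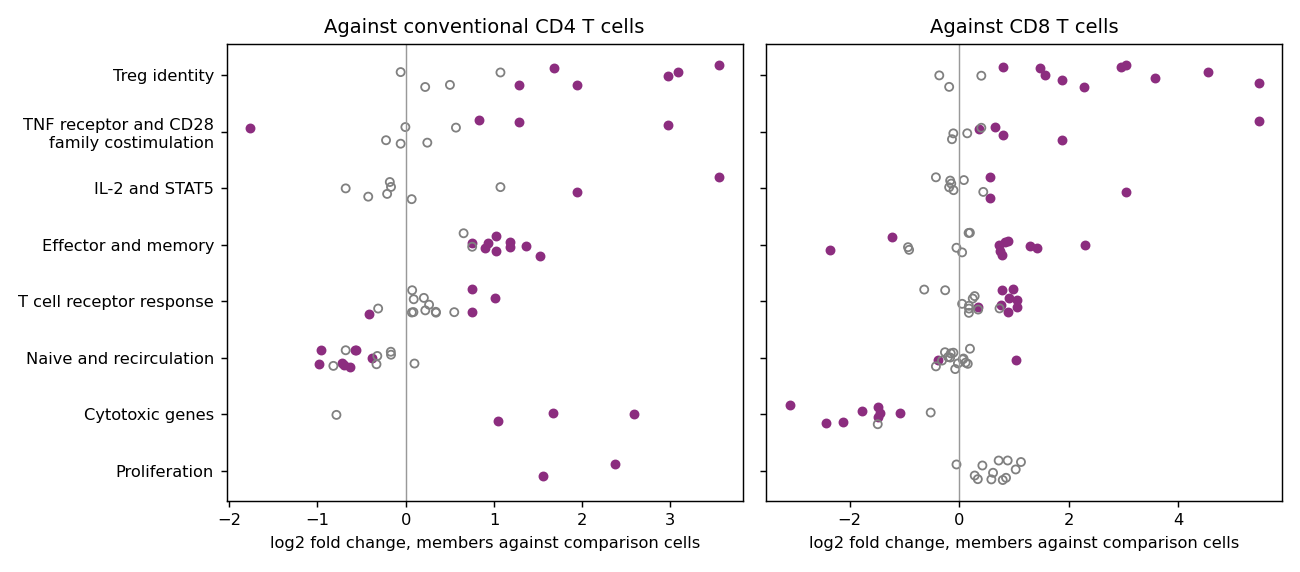
Log2 fold change (horizontal axis) of each tested gene of 8 function lists, in members against conventional CD4 T cells and against CD8 T cells (hCD2- library); filled points passed an edgeR adjusted p of 0.05 and open points did not; height within a row is jitter. The called cytotoxic genes lie to the right of 0 against conventional CD4 cells and to the left against CD8 cells, while the called regulatory identity genes lie to the right in both.

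The members were next split by their Foxp3 transcripts, over both libraries (113 cells in 11 mice with a Foxp3 UMI against 137 cells in 12 mice without). Cells with a Foxp3 UMI held more of the interleukin 2 receptor and of dividing-cell genes, and less of naive and cytotoxic ones. The test called 882 of 4980 genes higher (17.7%) and 721 lower (14.5%), as edgeR adjusted. A Foxp3 UMI is also easier to find in a deep cell, and hCD2+ cells made up 54 of the 115 with one and 35 of the 137 without. In the hCD2- library alone, 151 of 2860 genes were higher (5.28%) and 137 lower (4.79%).

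Il2ra separated the kinds without overlap, at 320, 863 and 1150 CPM with a Foxp3 UMI and at 0, 56.6 and 92.8 without (log2 fold change 3.98, SE 0.295, edgeR adjusted p = 4.21e-10). It was 4.32 (SE 0.386) in the hCD2- library alone. Tnfrsf4 was at 259 ± 87.6 (SD, n = 11) against 36.9 ± 40.0 CPM (n = 12), a log2 fold change of 2.65 (adjusted p = 1.28e-05). Ccr4, a chemokine receptor of skin and tissue homing, was at 131 ± 67.1 against 15.2 ± 21.2 CPM (3.34, adjusted p = 2.65e-06). Maf (3.01), Capg (2.85), Lgals1 (2.17) and Nrp1 (2.18) were higher in 11 of 11 mice. In the hCD2+ library alone (7 mice against 5), Tnfrsf4 (1.01, adjusted p = 0.225), Lgals1 (0.49, adjusted p = 0.526) and Nrp1 (0.32, adjusted p = 0.706) did not pass, while Il2ra (3.86), Maf (1.52) and Capg (1.70) did. Of 15 tested regulatory identity genes 11 were higher and 0 lower (median 1.28), and 9 of 11 in the hCD2- library alone (median 1.79).

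Of 10 tested genes of interleukin 2 and Stat5 signalling 3 were higher and 2 lower (median -0.07). Socs2, an inhibitor that cytokines induce through Stat5, rose by 1.97 (SE 0.555, adjusted p = 0.00887) and Il2rb by 1.29 (adjusted p = 0.00031), with Il2rb at 0.78 and not called in the hCD2+ library alone. Il7r, the interleukin 7 receptor chain, was at 158 ± 126 against 464 ± 217 CPM and fell by 1.72 (SE 0.397, adjusted p = 0.00214). Il7r did not pass in the hCD2- library alone (-1.03) or without cells with a Mki67 or Top2a UMI (-0.77). Of 14 suppressive genes only 3 passed the low-count filter, so the list as a whole was not tested. All 3 were higher, namely Lgals1, Nt5e (1.28) and Tgfb1 (0.42, adjusted p = 0.0156). In the hCD2+ library alone none of the 3 passed (edgeR; 0.49, 0.54 and 0.02). Without Cd8 cells Nt5e (0.97, adjusted p = 0.052) and Tgfb1 (0.18) did not pass, nor did Tgfb1 without the low-count filter (0.39) or without cells with a Mki67 or Top2a UMI (0.57).

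Naive genes were lower in 11 of 15 tested and higher in 0 (median -0.97), and in the hCD2- library alone 5 were lower and 1 higher of 15 (median -0.49). Tcf7 was at 91.4, 151 and 382 CPM with a Foxp3 UMI and at 451, 612 and 839 without, and the groups did not overlap (log2 fold change -1.81, SE 0.194, adjusted p = 3.48e-07). Lef1, its partner factor, was at 434 ± 294 against 1523 ± 393 CPM (-1.87, adjusted p = 1.14e-05). Dapl1, a gene of quiescent lymphocytes, fell by 3.99 (SE 0.649, adjusted p = 7.51e-05). Themis, a signalling protein of the T cell receptor, fell by 1.87 without overlap, and 7 of 16 T cell receptor complex genes were lower against 1 higher. In the hCD2- library alone 2 of 16 were lower and 1 higher.

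The Cd8 chains, the coreceptor of cytotoxic T cells, were higher in the members without a Foxp3 UMI. Cd8a was at 0, 0 and 22.8 CPM with a Foxp3 UMI and at 48.5, 119 and 217 without (log2 fold change -5.36, SE 0.462, adjusted p = 5.15e-09), and Cd8b1 fell by 4.89. Cd4 was at 184 ± 53.0 against 128 ± 59.7 CPM and did not pass (0.52, adjusted p = 0.0584). Nkg7 was at 22.6 ± 27.3 against 173 ± 82.8 CPM (-3.07, SE 0.422, adjusted p = 1.06e-05). With the Cd8 cells left out, 1023 genes were called against 1603, and Tnfrsf18 was at 0.63 and did not pass. It was at 0.02 in the hCD2+ library alone.

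Dividing-cell genes were higher in 12 of 15 tested (median 1.5). Rrm2, a subunit of the enzyme that makes deoxynucleotides, was at 375 ± 207 against 35.7 ± 45.3 CPM (3.10, SE 0.548, adjusted p = 0.000208). In the hCD2- library alone, 4 such genes were tested and 0 called (edgeR; median 0.40). Ikzf2 did not pass over both libraries (0.90, adjusted p = 0.08), was called at 1.78 in the hCD2- library and lay at -0.85 in the hCD2+ library. That difference between libraries is described next.

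Between fractions, members of the hCD2+ library held more transcript of dividing-cell genes and less of naive and interleukin 7 receptor genes than members of the hCD2- library. The comparison covered 86 cells in 10 mice against 163 cells in 12 mice. The edgeR test called 1320 of 5212 genes higher (25.3%) and 1100 lower (21.1%). Depth, Foxp3 detection, Cd8 detection and division all differ between these cells. Cd8a or Cd8b1 without Cd4 was detected in 13 of 89 hCD2+ and 52 of 163 hCD2- members. A Foxp3 UMI was present in 54 of 89 hCD2+ and 61 of 163 hCD2- members. A Mki67 or Top2a UMI was present in 64 of 89 and 66 of 163, and still in 52 and 39 after thinning each cell to 3000 UMIs.

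Rrm2 was at 8.75, 509 and 579 CPM in hCD2+ members and at 0, 39.2 and 147 in hCD2- members (log2 fold change 3.12, SE 0.462, edgeR adjusted p = 3.07e-05, 10 of 10 mice). Of 15 tested proliferation genes 14 were higher and 0 lower (median 1.63). Il7r was at 20, 102 and 226 CPM against 168, 326 and 981 (-2.09, SE 0.365, adjusted p = 0.000107). Il2ra was at 679 ± 322 against 268 ± 116 CPM (1.37, adjusted p = 0.000149). Among members with a Foxp3 UMI the rise of Il2ra did not pass (0.45, adjusted p = 0.176). In members without a Mki67 or Top2a UMI (13 hCD2+ cells in 3 mice against 96 cells in 11) it was 0.19.

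Among further genes called lower, Bach2, a repressor that keeps T cells quiescent, was at 338 ± 189 against 974 ± 276 CPM (log2 fold change -1.53, SE 0.237, edgeR adjusted p = 4.45e-05). Itgae (CD103, which binds E-cadherin on epithelium) was at 18.4 ± 32.3 against 49.7 ± 31.5 CPM (-2.23, adjusted p = 0.00248). Over both libraries, Itgae was found in 50% of the 62 members with Cd8 alone and no Foxp3 UMI. In the 94 Foxp3-detected members with Cd4 alone it was found in 21.3%. The part of Cd8 cells in its fall was not tested. Without cells holding a Mki67 or Top2a UMI, Bach2 (-0.55), Itgae (-0.38) and Il7r (-0.43) did not pass. That left 13 hCD2+ cells in 3 mice against 96 cells in 11. With so few cells, a lost call does not decide whether a difference holds. tdTomato itself fell by 0.96 (SE 0.154, adjusted p = 5.51e-05), from 337 ± 75.5 to 168 ± 47.1 CPM. It did not pass without cells holding a Mki67 or Top2a UMI (-0.54, adjusted p = 0.591) or in members with no Foxp3 UMI (-0.46, adjusted p = 0.405). The droplets of 10 to 100 UMIs were lower in tdTomato in the hCD2+ library too, as given above, and the part of free RNA was not tested.

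Both kinds of member were then compared alone. Among the members with a Foxp3 UMI (48 hCD2+ cells in 7 mice and 58 hCD2- cells in 10 mice), 1010 of 4118 genes were higher (24.5%) and 854 lower (20.7%), as edgeR adjusted. In members without a Foxp3 UMI (24 hCD2+ cells in 5 mice and 102 hCD2- cells in 12), 23 genes were called. Foxp3, which chose these cells, was at 96.2 ± 23.7 CPM (SD, n = 7) in hCD2+ and 272 ± 75.9 (SD, n = 10) in hCD2- cells, a description, since 1 UMI weighs more in a shallower cell. The hCD2+ cells with a Foxp3 UMI had a median of 64046 UMIs against 17410. A Mki67 or Top2a UMI was present in 45 of 54 of them against 26 of 61, and in 75.9% against 26.2% after thinning. The median of hCD2+ Foxp3 cells with such a UMI was 69775 UMIs and of those without 16159.

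Genes of regulatory T cell identity were lower in the hCD2+ cells with a Foxp3 UMI, and so were genes of other T cell lists. Of 18 tested genes 9 were lower and 1 higher (median -1.0), and 7 of 9 costimulatory receptors were lower (median -0.88). Of 20 tested lineage transcription factors 14 were lower (median -1.05), as were 10 of 14 naive genes (median -1.175), each with 0 higher. Of 16 T cell receptor complex genes 9 were lower and 1 higher, while 14 of 15 proliferation genes were higher. The cells chosen by a Foxp3 UMI differed in depth, as given above, and the part of depth in these genes was not tested. Ikzf2 was at 26.9, 311 and 1267 CPM in 7 mice against 481, 1749 and 3453 in 10 mice (log2 fold change -2.27, SE 0.512, adjusted p = 0.00152). The groups overlapped, through 1 hCD2+ mouse far above its other 6. Lrrc32 was at 0, 4.23 and 55.1 CPM against 58.3, 96.6 and 173, without overlap (-3.09, SE 0.495, adjusted p = 0.000127). Tnfrsf18 fell by 1.29 (adjusted p = 0.00134), and Nrp1 was at -1.42 (adjusted p = 0.00159).

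Not every such gene fell. Capg rose by 0.84 (adjusted p = 0.019) and Lgals1 by 0.96 (adjusted p = 0.00931), while Maf (-0.05, adjusted p = 0.947) and Ccr4 (-0.03, adjusted p = 0.97) did not pass. Lgals1 was at 456, 961 and 1350 CPM in hCD2+ cells with a Foxp3 UMI and at 213, 419 and 958 in hCD2- ones. Il7r fell by 2.40 (SE 0.599, adjusted p = 0.00323) and Lef1 was at -2.26, while Rrm2 was at 544 ± 99.3 against 97.3 ± 113 CPM (2.40, SE 0.507, adjusted p = 0.000903). tdTomato fell by 0.96, as in all members.

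The fall of Ikzf2 was looked at in dividing and non-dividing members. Over all members it was -1.39 (SE 0.423, edgeR adjusted p = 0.0097), and after thinning to 3000 UMIs -0.69, where it did not pass. In cells with a Mki67 or Top2a UMI (9 mice in each group) it was -2.28 (SE 0.664, adjusted p = 0.0116), and Il7r (-2.92) and Rrm2 (2.40) were called there too. In cells with no such UMI (3 mice against 11) it was -0.01, and 12 genes were called in all. In members with no Foxp3 UMI Ikzf2 was at 0.29 and did not pass. Whether these values differ from each other was not tested.

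**Figure D4:**
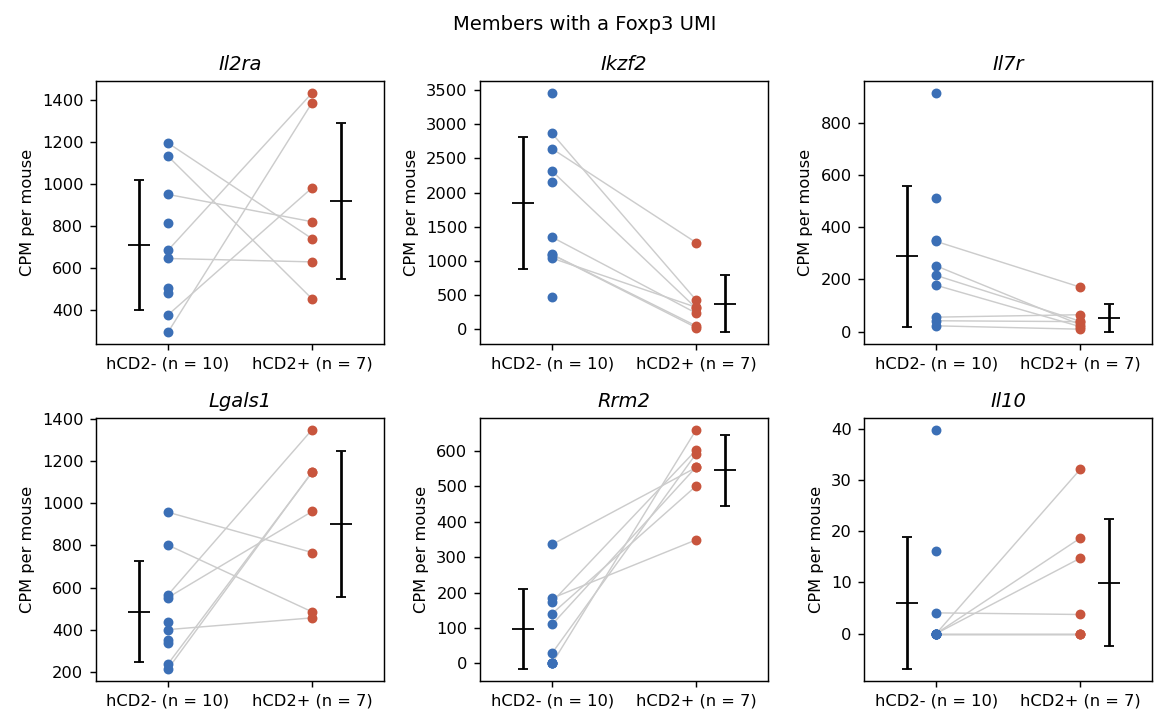
CPM per mouse of Il2ra, Ikzf2, Il7r, Lgals1, Rrm2 and Il10 in members with a Foxp3 UMI, hCD2- (n = 10 mice) against hCD2+ (n = 7 mice), with 1 point per mouse, lines joining the fractions of a mouse, and the mean ± SD beside the points. Ikzf2 and Il7r lie lower and Rrm2 higher in hCD2+, and 1 hCD2+ mouse stands at 1267 CPM of Ikzf2.

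Il10, an inhibitory cytokine (chr1:131019845-131024974, plus strand), was detected in 9 of 54 and 3 of 61 cells with a Foxp3 UMI, at 9.89 ± 12.4 CPM (n = 7) and 5.99 ± 12.9 CPM (n = 10), an exact permutation p = 0.57. Of the 7 mice with both fractions, it was higher in hCD2+ in 3, at 0 in both fractions in 3 and lower in 1 (3.72 against 4.04 CPM). Exact sign flips within mice gave p = 0.25, but mice at 0 in both fractions have no difference to flip. With so few differences left, the sign flips could not have passed, and nothing is concluded from them. After thinning to 3000 UMIs, 1 cell of each fraction had an Il10 UMI, so the share at equal depth shows no order. As a background, 1 of 175 CD8 T cells of the hCD2+ library had an Il10 UMI, at a median of 17292 UMIs. Il10 was below the low-count filter of the tests across genes. Without that filter, edgeR gave it a log2 fold change of 2.75 (adjusted p = 0.0134) in all hCD2+ against hCD2- members.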

How the data were processed

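Single-cell RNA of 12 mice was measured in 2 libraries (10x 3' kit v4, per the labels). The deposited values are raw UMI counts per gene and barcode, made by the authors (Cell Ranger 8.0.1, mm10, with features added for tdTomato, hCD2, Cre and iCre), per the submitters' processing notes and the file headers. A deposited table gives each called cell's hashtag and its probability, a fraction from 0 to 1. Hashtag multiplets (465 hCD2- and 806 hCD2+) and blank or unassigned cells were left out, and no doublet caller was run.

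Counts were summed per mouse and class (at least 5 cells against CD4 and CD8, else 3) then tested by edgeR's quasi-likelihood method (4.0.16, R 4.3.3, TMM and filterByExpr), adjusted over all genes tested. Genes that chose the cells were left out of counts. The fit was tested on simulated data with known changes. Shares were compared by permutation (100000 resamples), with at least 20 cells per mouse. Python 3.11.15, numpy 2.4.6, scipy 1.17.1 and pandas 2.3.3 were used. Promoter sequences are RefSeq's (GRCm38.p6).

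Equal hashtags mark the same mouse in both libraries, per the design, and the Xist state of the hashtags was the same for 12 of 12 (higher in 7). The main fits had no mouse term.

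Members, gene lists and the rule for named genes were chosen with earlier results of these data known. Named were, per list and comparison, the 4 genes of smallest adjusted p in the commoner direction and 2 of the other, the called genes with the largest fold changes (10 in each direction, mean log2 CPM 5 or more), and the 5 genes detected most with Foxp3. The comparison of Foxp3-detected members between fractions was added after the data were seen, and Lrrc32, Tnfrsf18 and Nrp1 were named in it for their values. Some genes are not reported here. DESeq2 1.42.0, other filters, thinning to 3000 UMIs and other member definitions were alternatives.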

Additional observations from a re-analysis of the deposited data

Results flagged for a closer look

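In all, 5 values stood apart from the other mice of their group by a gap test at the 95% level. Among members with a Foxp3 UMI in the hCD2- fraction (10 mice), 1 mouse had 39.83 CPM of Il10 with the next at 16.05 and 1 had 1220 CPM of Maf with the next at 577.6. Among those of the hCD2+ fraction (7 mice), 1 mouse had 1267 CPM of Ikzf2 with the next at 427.3, and 1 had 170.3 CPM of Il7r with the next at 64.58. Over all members of the hCD2+ fraction (10 mice), 1 mouse had 29.13 CPM of Il10 with the next at 14.95. These were 5 of 34 groups of values looked at. The test gives about 1 in 20 by chance only for independent values of a normal distribution. Some groups shared cells, and Il10 was at 0 in 7 of the 10 hCD2- mice with Foxp3-detected members. The number flagged is therefore not set against chance. No cause was tested.

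Barcodes outside the comparisons also met the rule. Of barcodes the authors' table calls Multiplet, 26 met it, and of those called Unassigned, 5 did.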

How the results depend on the processing

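Alternatives on other member sets, single libraries and dividing cells were chosen after the data were seen. Against conventional CD4 cells, 576 genes were called in the report, and the number was 67 after thinning to 3000 UMIs, 2499 with both libraries summed, 331 with comparison cells lacking all 3 genes, 1779 in the hCD2+ library, 74 without Mki67 or Top2a UMIs and 881 with Foxp3-detected members in mice with at least 3. Against CD8 cells, 893 became 1433 with no filter, 241 thinned, 2795 with both libraries, 1436 with Foxp3-detected members, 219 with the other members, 2388 in the hCD2+ library and 512 without Mki67 or Top2a UMIs. For the Foxp3 split, 1603 became 110 thinned, 288 in the hCD2- library, 691 in the hCD2+ library (38.2% of them higher, against 55.0%), 1023 without Cd8 and 201 without Mki67 or Top2a UMIs. Between fractions, 2420 became 205 thinned, 23 without Foxp3, 12 without Mki67 or Top2a UMIs and 1612 with them. The causes were not tested, though thinned and smaller sets test fewer counts or mice.

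Of the shares, that of T cells was higher by 10.9 percentage points and by 2.31 thinned, where it did not pass, and that of filtered cells was -0.449 with all 3 genes.

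With mouse as a replicate block, 516, 809, 1525 and 2182 genes were called in the 4 comparisons, and both shares passed (exact p = 0.0195 and 0.000488). Of the genes named, the block ended the calls of Klrd1 and Cd6 against CD4 cells and of Batf and H2-Ab1 against CD8 cells.

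Of named genes, 680, 700, 410 and 428 values under alternatives stayed called in the same direction or stayed uncalled (CD4, CD8, Foxp3 split, fractions). Values that stayed uncalled were counted there whatever their sign. The call was lost by 82, 87, 66 and 120, and 7, 11, 7 and 21 changed sign with at least 1 value of the pair called, as follows. Against CD4 cells these were Cd5 0.065 and Ctsw -0.27 with Cd4-only members, Cd6 0.0012 with Foxp3-detected ones, and Dusp2 -0.17, Nr4a2 -0.40, Cd6 0.13 and Myo1e -1.73 in the hCD2+ library. Against CD8 cells they were Stat5b -0.28, Stat5a -0.18, Btla -0.16, Rel -0.063, Nr4a1 -0.20 and Cd247 -0.85 in the hCD2+ library, Cd247 -0.039 with both, Lgals1 -0.14, Gata3 -0.044 and S100a10 -0.075 without Foxp3, and Igfbp4 -0.55 with it. For the Foxp3 split they were Cd27 0.31, Cd96 0.11, Cblb 0.11, Ccr7 0.12 and Lat -0.23 without Mki67 or Top2a UMIs, S100a6 -0.25 in the hCD2+ library and Dusp2 0.25 in the hCD2- library. Between fractions they were, without Mki67 or Top2a UMIs, Cd8a 0.16, Cd8b1 0.15, Cd27 0.24, Cd226 1.06, Btla 0.42, Vsir 0.52, Dusp2 0.43, Ctsw 0.18, S1pr1 0.19 and Lat -0.079. Without Foxp3 they were Ikzf2 0.29, Cd226 0.36, Btla 0.080, Vsir 0.036, Junb 0.16, Dusp2 0.57, Ctsw 0.10 and Ifi203 0.029, with it Maf -0.051 and Ccr4 -0.027, and thinned Cd2 0.14.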
